A study of Mus musculus with 9 samples.

Results

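The genes of the hypoxia-inducible factor (HIF) pathway and of glycolysis were followed in whole mouse ovary after hyperbaric oxygen. The set holds 40 genes chosen by name: oxygen sensors, HIF subunits, HIF target genes and glycolytic enzymes. All 40 were found among the 22544 entries of the deposited FPKM table (fragments per kilobase of transcript, scaled to the sequenced total), and 40 of 40 were among the 13338 entries that reached 1 FPKM in at least 3 of the 9 libraries and were tested. The libraries fall into 3 groups of 3. HBOT ovaries had received, per the design text, CTX combined with hyperbaric oxygen, CTX ovaries had received CTX (the usual abbreviation of cyclophosphamide, an alkylating drug that damages follicles), and NC ovaries carry neither treatment in their labels and served as the reference for both. The drug is thus shared by the HBOT and CTX groups, and an oxygen group without it was not analysed here. The sources used here give no strain, age, dose, timing of the oxygen or stage of the estrous cycle. They do not say whether each library is a separate mouse, and the p-values therefore speak of the spread among these libraries, which may be technical.

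HIF is a pair of proteins, an alpha subunit encoded by Hif1a or Epas1 and a partner encoded by Arnt. When oxygen is plentiful, prolyl hydroxylases of the Egln family mark the alpha subunit for destruction through Vhl. When oxygen is short the alpha subunit survives and switches on genes for glucose uptake, glycolysis, lactate export, blood vessel growth and mitophagy, and Egln3 is itself among its targets. Much of this control acts on HIF protein, which RNA does not show. In the ovary, granulosa cells of growing follicles lie beyond the vessels and supply the oocyte with pyruvate, and the HIF pathway is engaged by the ovulatory surge of luteinising hormone and in the forming corpus luteum.

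HIF binds a short core motif near its targets, spelled ACGTG, with GCGTG as a variant. Of the 40 genes, 36 were matched by symbol to RefSeq promoter windows (GRCm38.p6, 250 bases before to 50 bases after a gene's start, 53 windows in all); Slc2a3, Bnip3l, Ndrg1 and Epas1 were not. Either motif, read on both strands, stood in at least 1 window of 30 of these 36 genes (83.3%), against 46.7% of the 27025 genes in the table. Per window the share was 73.6% of 53, against 43.8% of all 32851 windows. The windows of the set were also richer in G and C, with a median of 61.3% against 52.7%. The letters describe the window and are no evidence of binding. The windows of 4 genes with a single window are shown because these genes are at the extremes of the results described further on: Egln3 and Slc2a1 stood highest in HBOT replicate 2, Bnip3 stood lowest there, and Pgam1 had the smallest p of the set in HBOT against NC. They lie at chr12:54203825-54204124 (minus strand), chr4:119108495-119108794 (plus strand), chr7:138909457-138909756 (minus strand) and chr19:41911621-41911920 (plus strand). Each is printed 5′ to 3′ along its gene, with both motifs and their reverse complements in capitals. In Bnip3 the run CACGTG counts on both strands, which makes 5 matches in its window. Egln3 has 1 match, Slc2a1 2 and Pgam1 3.
Egln3: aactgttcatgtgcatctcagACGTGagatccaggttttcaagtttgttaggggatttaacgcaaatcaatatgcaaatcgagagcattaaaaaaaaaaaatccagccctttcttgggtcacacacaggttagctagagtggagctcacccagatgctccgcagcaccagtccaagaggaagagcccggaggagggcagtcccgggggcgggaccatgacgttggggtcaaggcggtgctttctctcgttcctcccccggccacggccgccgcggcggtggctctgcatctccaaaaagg
Slc2a1: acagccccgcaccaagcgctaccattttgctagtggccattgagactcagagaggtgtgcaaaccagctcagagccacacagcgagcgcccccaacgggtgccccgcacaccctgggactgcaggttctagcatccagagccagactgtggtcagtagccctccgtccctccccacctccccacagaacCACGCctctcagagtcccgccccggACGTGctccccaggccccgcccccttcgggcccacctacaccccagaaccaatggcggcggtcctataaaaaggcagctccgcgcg
Bnip3: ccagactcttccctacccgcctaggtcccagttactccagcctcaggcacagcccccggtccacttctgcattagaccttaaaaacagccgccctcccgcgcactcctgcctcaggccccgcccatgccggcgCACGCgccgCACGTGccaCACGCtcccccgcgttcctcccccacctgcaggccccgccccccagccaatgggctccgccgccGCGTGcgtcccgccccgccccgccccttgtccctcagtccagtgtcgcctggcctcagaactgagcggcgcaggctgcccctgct
Pgam1: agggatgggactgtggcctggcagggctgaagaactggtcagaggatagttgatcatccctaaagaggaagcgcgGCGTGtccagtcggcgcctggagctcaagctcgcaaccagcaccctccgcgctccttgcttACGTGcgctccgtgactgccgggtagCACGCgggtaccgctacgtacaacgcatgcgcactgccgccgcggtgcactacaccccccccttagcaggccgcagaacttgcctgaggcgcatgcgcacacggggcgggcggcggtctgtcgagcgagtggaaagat

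Library sums ran from 394046 to 420058 FPKM, a unit from which the read depth cannot be had. HBOT replicate 2 differed from every other library. A distance over 1 log2 unit to the mean of the remaining libraries was found for 1637 tested genes (12.3%) in it and for 1.3% to 2.6% in each other library. In it all 10 listed genes of the ovulatory response were at their highest, with a summed level of 1007 FPKM against 13.8 to 40.9 FPKM elsewhere. The tissue label was borne out by its markers, as all 10 oocyte and all 8 granulosa genes listed were detected, while 5 of 6 skeletal muscle genes stayed under 1 FPKM. Several markers of other cells differed between groups. Summed oocyte markers were at 331 to 380 FPKM in HBOT, 229 to 348 in CTX and 145 to 208 in NC. Summed erythroid markers were at 317 to 735 FPKM in HBOT, 387 to 817 in CTX and 62.9 to 207 in NC, summed neutrophil markers at 13.1 to 37.5 in HBOT, 7.03 to 33.7 in CTX and 0.880 to 1.93 in NC, and summed macrophage markers at 118 to 184 in HBOT, 121 to 163 in CTX and 94.8 to 105 in NC. Their part in the results was not tested. In whole tissue, fewer cells of a type and less RNA per cell cannot be told apart.

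The most abundant genes of the set were glycolytic enzymes of the trunk of the pathway. Aldoa (ENSMUSG00000030695), the main aldolase, averaged 535 FPKM over the 9 libraries, above 99.5% of the tested genes, followed by Pkm (pyruvate kinase, 256 FPKM), Pgam1 (phosphoglycerate mutase, 194), Ldha (lactate dehydrogenase A, 190.5), Tpi1 (triosephosphate isomerase, 169), Eno1 (enolase, 123), Gpi1 (glucose phosphate isomerase, 108) and Pgk1 (phosphoglycerate kinase, 94.9). Gapdh, usually a highly expressed enzyme of the same pathway, was at only 11.2 to 24.7 FPKM in these columns. It has many near-identical pseudogene copies, as have several of these enzymes, so the share of reads credited to it is uncertain and its FPKM should not be read as the level of the enzyme. The same holds for Eno1, whose retrocopy Eno1b was credited with 49.3 to 84.9 FPKM. At the low end of the scale stood Ankrd37 (an ankyrin-repeat HIF target, 0.477 to 1.59 FPKM), Egln3 (0.394 to 13.5), Car12 and Car9 (carbonic anhydrases of the cell surface, 1.16 to 4.13 and 2.20 to 4.35) and Slc2a3 (a neuronal-type glucose transporter, 1.64 to 3.80). The oxygen sensors and HIF subunits lay in between. Egln1, the principal oxygen sensor, was among the steadiest genes of the set, with 13.1 to 16.1 FPKM over the 9 libraries, a 1.23-fold range, and Arnt (1.23-fold) and Hif1an, which encodes the asparaginyl hydroxylase that blocks HIF activity (1.24-fold), varied as little. Egln3 varied 34.2-fold, Aldoc, the brain-type aldolase, 8.17-fold and Bnip3, a receptor for mitophagy, 6.602-fold.

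**Figure D1:**
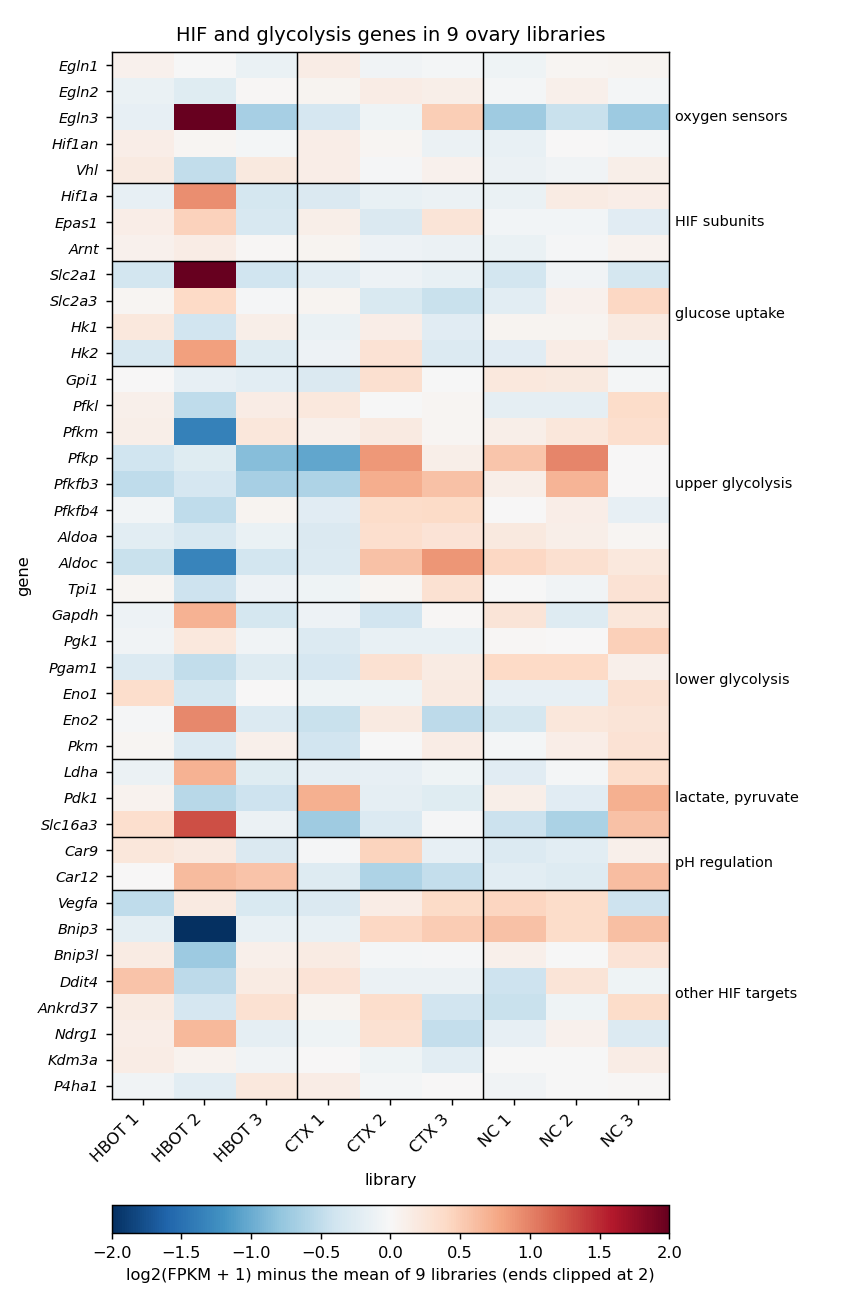
Level of each of the 40 genes (rows, grouped by role) in each library (columns, HBOT, CTX and NC), as log2(FPKM + 1) minus the mean of the 9 libraries, with the colour scale ending at 2. HBOT replicate 2 shows the strongest colours, with 8 genes over 1 log2 unit away from the mean of the remaining libraries, as were 12.3% of all tested genes.

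HBOT against CTX compares the drug with and without hyperbaric oxygen. None of the 40 genes passed limma's test (0 at an adjusted p under 0.05, smallest adjusted p = 0.71), as was true of all 13338 tested genes (0% called). At an unadjusted p under 0.05 there were 3 of the 40, where 6.09% of all tested genes had such a p: 1 was higher in HBOT (2.41% of all tested genes) and 2 were lower (3.67%). The median log2 fold change was 0.013 over the set and -0.067 over all tested genes. Of the 40 genes 4 had groups that did not overlap, where 10.2% of all tested genes did so: 2 were higher in HBOT (3.76%) and 2 lower (6.44%). A share of 4 in 40 is near that background. Without HBOT replicate 2 the numbers were 3 higher (9.17% of all tested genes) and 4 lower (9.57%).

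Aldoc had the smallest p in this comparison. It was at 2.66, 1.01 and 2.86 FPKM in HBOT, against 3.16, 6.49 and 8.23 FPKM in CTX. Every HBOT library lay below every CTX library, although CTX replicate 1 came close to HBOT replicates 1 and 3. The log2 fold change was -1.11 (SE 0.33, limma adjusted p = 0.71), and -0.81 without HBOT replicate 2. Car12, an enzyme that helps cells dispose of acid, was at 2.34, 4.13 and 3.92 FPKM in HBOT, against 1.77, 1.16 and 1.37 FPKM in CTX, again without overlap (0.86, SE 0.27, adjusted p = 0.71). NC replicate 3 was at 4.11 FPKM, next to the highest HBOT library. Car9, the other carbonic anhydrase and a classic hypoxia marker, showed no such separation, at 3.59, 3.42 and 2.20 FPKM in HBOT, 2.86, 4.35 and 2.47 in CTX and 2.22, 2.37 and 3.19 in NC (log2 fold changes -0.047 in HBOT against CTX, 0.22 in CTX against NC and 0.17 in HBOT against NC, SE 0.22 each).

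Bnip3 was at 37.4, 9.999 and 38.9 FPKM in HBOT, against 38.7, 57.9 and 61.5 FPKM in CTX. The HBOT libraries and CTX replicate 1 lay together, apart from HBOT replicate 2, which was far lower (log2 fold change -1.04, SE 0.45, limma adjusted p = 0.71, and -0.43 without HBOT replicate 2). Egln2, a prolyl hydroxylase, was at 33.5, 31.0 and 37.1 FPKM in HBOT, against 38.2, 40.9 and 39.9 FPKM in CTX. The groups did not overlap, but the distance was small (-0.23, SE 0.10, adjusted p = 0.71). The fourth gene without overlap, Pgk1, was at 89.8, 108 and 89.3 FPKM in HBOT, against 77.6, 84.1 and 84.6 FPKM in CTX (0.21, SE 0.15, adjusted p = 0.71, and 0.12 without HBOT replicate 2).

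The upper part of glycolysis, from glucose 6-phosphate to the triose phosphates, was the largest role in which every fold change had the same sign. All 9 genes had lower mean log2 levels in HBOT than in CTX, with a median log2 fold change of -0.34, against -0.067 over all tested genes, of which 8214 of 13338 were negative. All 9 were negative under the 3 other scalings as well, and 8 of 9 with library weights. These counts include fold changes within their standard error, as those of Gpi1 (-0.13, SE 0.16) and Pfkl (-0.16, SE 0.21) were. With 1 library left out, 7 of 9 were negative without HBOT replicate 2 and 8 of 9 without CTX replicate 2. In the smaller roles the 3 HIF subunits and the 4 genes of glucose uptake and phosphorylation were all positive, and 1 of 3 and 2 of 4 were so without HBOT replicate 2. Pfkfb3, which makes the strongest activator of phosphofructokinase, was at 6.11, 6.98 and 5.32 FPKM in HBOT, against 5.57, 15.6 and 14.1 FPKM in CTX (-0.74, SE 0.34, adjusted p = 0.71). Here CTX replicate 1 lay among the HBOT libraries. Its relative Pfkfb4 was at 9.13, 6.45 and 9.996 FPKM in HBOT, against 7.99, 12.7 and 12.8 FPKM in CTX (-0.34, SE 0.21), and Aldoa at 454, 421 and 481 FPKM in HBOT, against 433, 669 and 636 FPKM in CTX (-0.33, SE 0.16, adjusted p = 0.71 for both). Pgam1, in the lower part of the pathway, was at 157, 135 and 157 FPKM in HBOT, against 149.8, 233 and 211 FPKM in CTX (-0.38, SE 0.17, adjusted p = 0.71).

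These groups overlapped through CTX replicate 1. For Pfkfb3, Pfkp, Aldoa and Pgam1 it stood near or below the HBOT libraries and far from the other CTX libraries. Without it, 8 of the 40 genes had an unadjusted p under 0.05 in HBOT against CTX, where 7.95% of all tested genes did, and 0 of the 40 passed (limma adjusted p = 0.285 for Pfkfb3, whose log2 fold change was then -1.16). Besides Pfkfb3 these were Aldoa, Aldoc, Pgam1, Pfkp, Pfkfb4 and Bnip3, all lower in HBOT, and Car12, higher. CTX replicate 1 was singled out by its values for some of these same genes. The larger count follows in part from that choice and is no separate result. With HBOT replicate 2 left out instead, the number was 2, where 5.22% of all tested genes had such a p. CTX replicate 1 also had the lowest summed level of corpus luteum markers among the CTX libraries, 2609 FPKM against 3678 and 4691. Its theca sum was the lowest, 4301 FPKM against 6052 and 9111, and its granulosa sum the highest, 2529 FPKM against 1512 and 2269. The luteal and theca lists share Hsd3b1, at 2211 FPKM in CTX replicate 1 against 3335 and 4221 FPKM. Not every marker went that way. The theca marker Cyp17a1 was highest in CTX replicate 1, at 511 FPKM against 12.3 and 300 FPKM. The luteal marker Akr1c18 was so too, at 289 FPKM against 125 and 153 FPKM. CTX replicate 1 stood apart from all other libraries in adipocyte markers, with a sum of 84.5 FPKM against 4.34 to 22.0 FPKM and Cfd at 39.8 FPKM against no more than 0.0469 FPKM. Adipoq was at 5.24 FPKM in it and listed at 0 in the other 8 libraries. The part of these markers in these values was not tested.

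**Figure D2:**
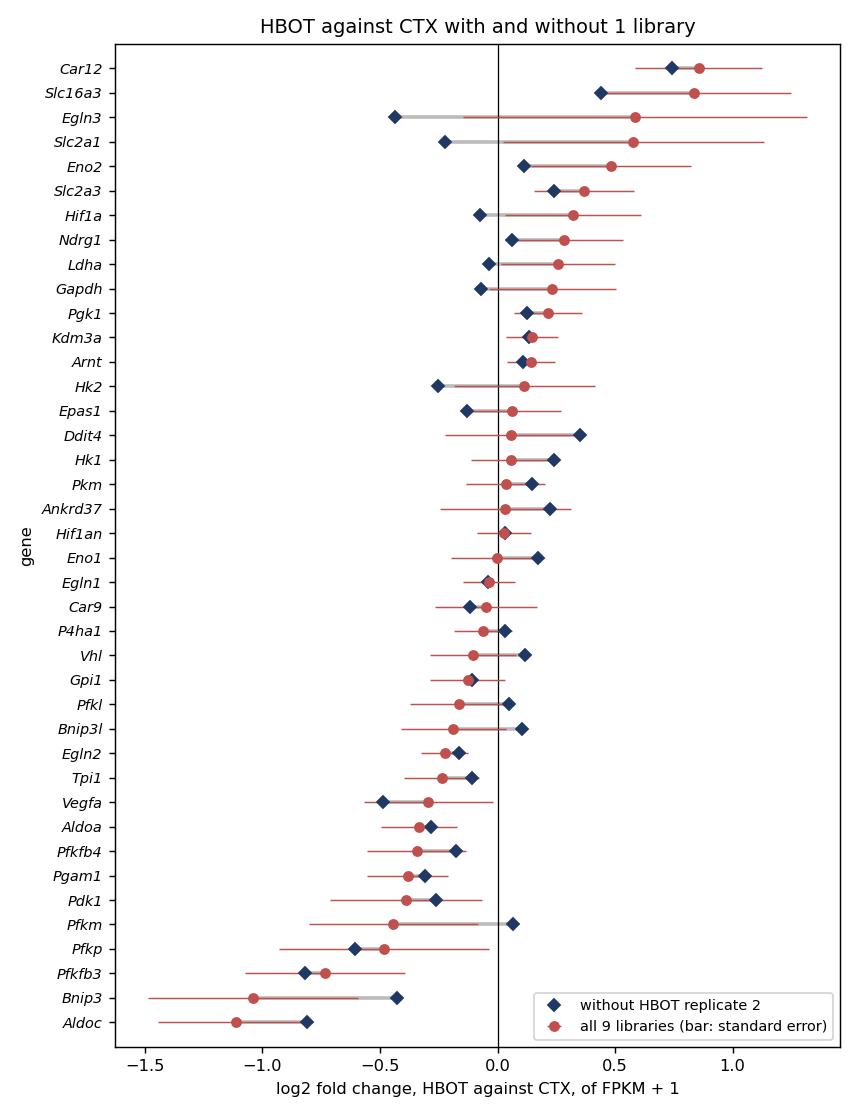
Log2 fold change of each of the 40 genes in HBOT against CTX, of FPKM + 1, with all 9 libraries (circles, bars are standard errors) and without HBOT replicate 2 (diamonds). Slc2a1 and Egln3 lie right of 0 with all libraries and left of 0 without that library, while Aldoc and Pfkfb3 stay left of 0 in both.

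HBOT replicate 2 stood apart within the set, as it did over all tested genes. It was the highest of the 9 libraries for 12 of the 40 genes and the lowest for 16, where it was the highest for 19.5% and the lowest for 44.1% of all tested genes. By the same distance of over 1 log2 unit, 8 of the 40 genes stood out in it, 5 high and 3 low, where 12.3% of all tested genes did. In any other library at most 1 gene of the set did so. These distances are a description of 1 library and carry no test.

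The 5 genes high in HBOT replicate 2 were Egln3, Slc2a1, Hif1a, Slc16a3 and Eno2. Egln3 was at 1.059, 13.5 and 0.449 FPKM in HBOT, 0.824, 1.17 and 2.24 in CTX and 0.414, 0.685 and 0.394 in NC (log2 fold change 0.59 in HBOT against CTX and 1.23 in HBOT against NC, SE 0.73, and -0.44 and 0.21 without HBOT replicate 2). The gene passed the filter on low values only through CTX and HBOT libraries. Slc2a1, the general glucose transporter, was at 9.67, 55.0 and 9.51 FPKM in HBOT, 10.9, 11.8 and 11.43 in CTX and 9.75, 12.1 and 9.77 in NC (log2 fold changes 0.58 in HBOT against CTX, 0.11 in CTX against NC and 0.68 in HBOT against NC, SE 0.55 each). The other 8 libraries were within 9.51 to 12.1 FPKM, so that the group mean of HBOT rests on 1 library, and without it the log2 fold change was -0.22 against CTX and -0.12 against NC. The 2 HBOT libraries left then lay below all of CTX and below all of NC, where 9.57% and 13.2% of all tested genes did so. Hif1a was at 33.7, 73.0 and 29.6 FPKM in HBOT, 30.9, 34.2 and 35.0 in CTX and 34.6, 42.5 and 41.6 in NC (log2 fold changes 0.32 in HBOT against CTX, -0.24 in CTX against NC and 0.083 in HBOT against NC, SE 0.29 each). Without HBOT replicate 2, Hif1a was at -0.075 in HBOT against CTX and -0.31 in HBOT against NC (SE 0.11, limma adjusted p = 0.331). The 2 HBOT libraries left then lay below all of NC, as was true of 13.2% of all tested genes. Slc16a3, the transporter that exports lactate, was at 6.47, 13.4 and 4.45 FPKM in HBOT, 2.65, 3.90 and 4.82 in CTX and 3.41, 2.82 and 7.93 in NC. Eno2, the neuronal-type enolase, completed the group above 1 log2 unit at 4.71, 10.4 and 3.81 FPKM in HBOT, against no more than 5.95 FPKM in any CTX or NC library. Ldha, at 303 FPKM in this library against 157 to 236 elsewhere, and Hk2, the inducible hexokinase, at 15.6 against 6.53 to 10.4, were also highest there. The ovulatory markers described above were highest in the same library, and their part in these values was not tested.

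The genes low in HBOT replicate 2 were Bnip3 (9.999 FPKM against 37.4 to 66.0 in the other 8 libraries), Pfkm, the muscle-type phosphofructokinase (7.54 against 21.5 to 26.5), and Aldoc (1.01 against 2.66 to 8.23). Bnip3l, the sister gene of Bnip3, was at its lowest there too, at 24.2 FPKM against 39.8 to 49.5. HIF targets stood at both ends in the same library: Slc2a1, Egln3 and Ldha high, Bnip3 and Bnip3l low. Vhl and Egln2 were at their lowest of the 9 libraries there too, at 9.24 and 31.0 FPKM. Vegfa, the best known HIF target in blood vessel growth, was at 87.8 FPKM in it, within the 54.6 to 105 FPKM of the other libraries.

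**Figure D3:**
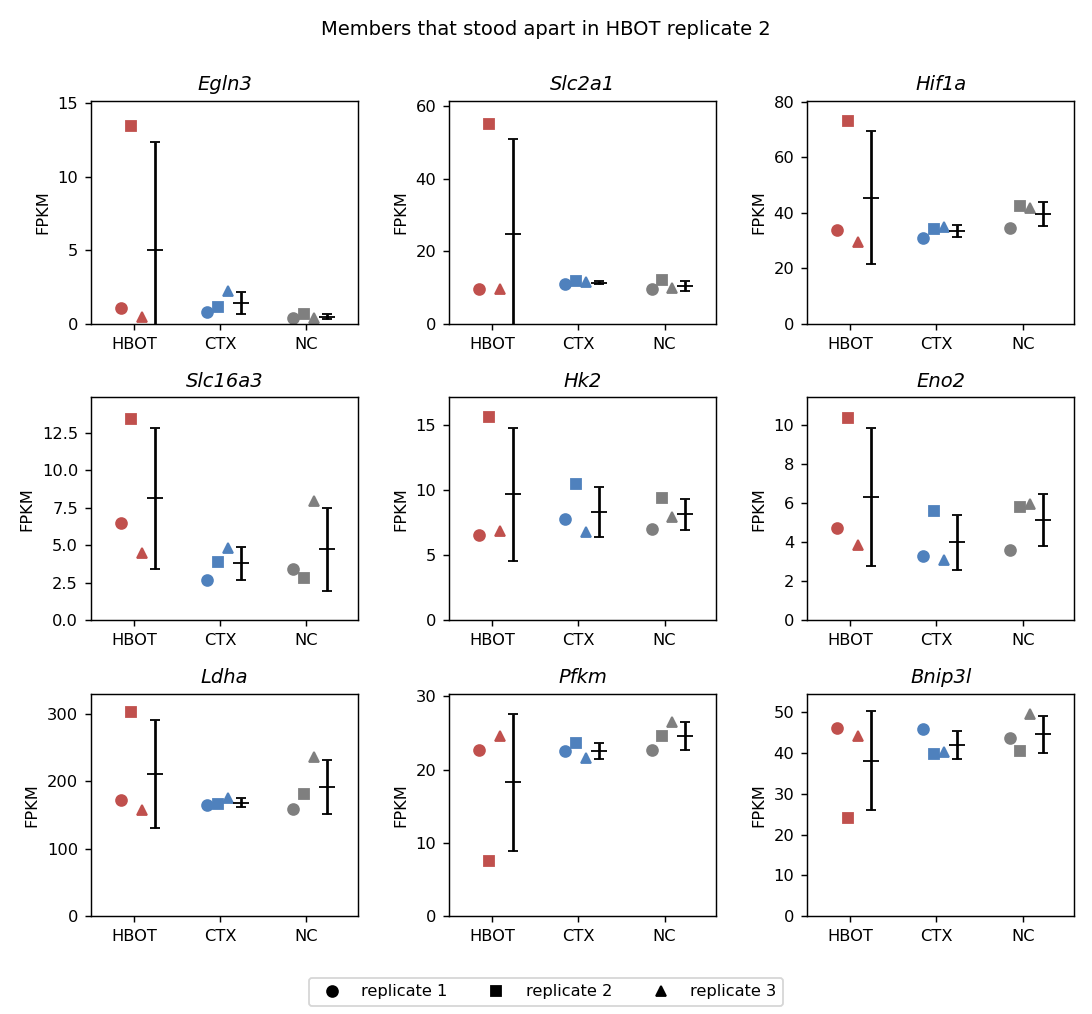
FPKM of 9 genes that stood apart in HBOT replicate 2, by group (HBOT, CTX, NC), with the 3 libraries of a group as a circle, a square and a triangle for replicates 1, 2 and 3. Black bars are mean and SD over 3 libraries, cut at 0 where they would run below it; the square of HBOT lies at 55.0 FPKM for Slc2a1 and at 7.54 FPKM for Pfkm.

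Isoenzyme balance also stood apart in that library. Hk2 made up 27.5%, 58.4% and 29.8% of the summed FPKM of Hk1 and Hk2 in the HBOT libraries, 36.6%, 39.1% and 35.1% in CTX and 31.2%, 37.8% and 31.9% in NC. HBOT replicate 2 is the only library in which Hk2 exceeded Hk1. Egln3 made up 2.12%, 22.9% and 0.886% of the 3 prolyl hydroxylase transcripts in HBOT, against 1.49% to 3.98% in CTX and 0.769% to 1.24% in NC. The platelet-type phosphofructokinase Pfkp behaved differently, with 20.9%, 36.8% and 15.2% of the phosphofructokinase transcripts in HBOT, 13.5%, 40.4% and 29.0% in CTX and 37.0%, 43.5% and 23.0% in NC. Its share varied about as much within CTX and NC as between the groups. These shares are descriptions without a test.

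**Figure D4:**
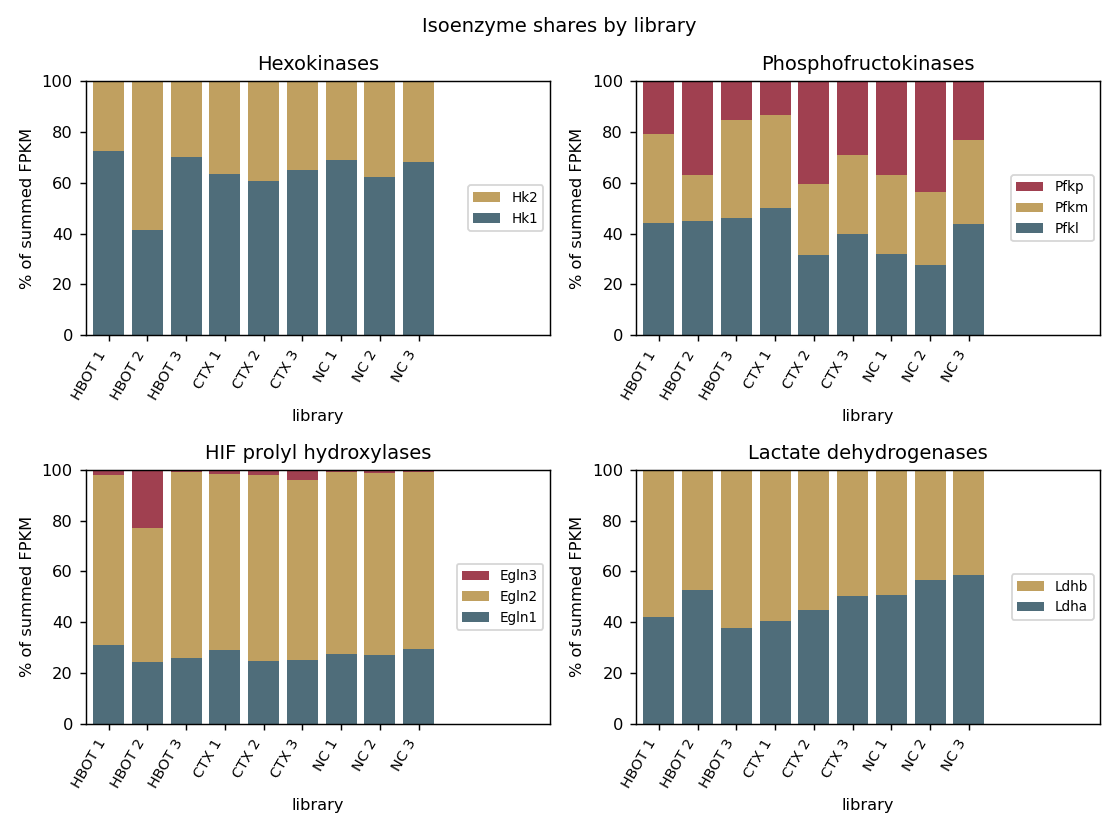
Percent of the summed FPKM of an enzyme family taken by each gene, for each library (HBOT, CTX, NC from left to right). Hk2 takes 58.4% and Egln3 22.9% of their families in HBOT replicate 2, and Ldhb takes 57.8%, 47.1% and 62.1% in the HBOT libraries.

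CTX against NC compares the drug alone with untreated ovaries. Again 0 of the 40 genes passed limma's test (smallest adjusted p = 0.601), with 0% of all tested genes called. At an unadjusted p under 0.05 there was 1 gene of the 40, Pgk1, where 7.98% of all tested genes had such a p: it was lower in CTX (2.74% of all tested genes), and 0 were higher (5.24%). The groups did not overlap for 2 of the 40 genes, where 21% of all tested genes did so: 1 was higher in CTX (13.2%) and 1 lower (7.8%). The median log2 fold change was -0.031 over the set and 0.046 over all tested genes.

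Pgk1, which makes the first ATP of glycolysis and is a textbook HIF target, was at 77.6, 84.1 and 84.6 FPKM in CTX, against 95.1, 94.2 and 131 FPKM in NC. Every CTX library lay below every NC library (log2 fold change -0.36, SE 0.15, limma adjusted p = 0.601, and -0.20 without NC replicate 3), and the HBOT libraries, at 89.3 to 108 FPKM, lay above CTX and overlapped NC. The comparison of HBOT with CTX given above and this comparison share the CTX libraries. Egln3 was the other gene without overlap, at 0.824 to 2.24 FPKM in CTX, against 0.394 to 0.685 FPKM in NC (0.65, SE 0.73, adjusted p = 0.909). Its standard error comes from all 3 groups and so contains the spread of HBOT replicate 2. Without that library the SE was 0.25 and the adjusted p 0.27. Egln3 passed the filter on low values only through CTX and HBOT libraries, as all NC libraries and CTX replicate 1 were under 1 FPKM. Such a filter favours genes higher in CTX than in NC, so this separation is no support for a difference. Of the other genes with the smallest p, Car12 (-0.50, SE 0.27), Slc2a3 (-0.33, SE 0.21), Pgam1 (-0.26, SE 0.17), the histone demethylase Kdm3a (-0.14, SE 0.11) and Pkm (-0.20, SE 0.17) all had overlapping groups. Car12 was at 1.77, 1.16 and 1.37 FPKM in CTX, against 1.85, 1.77 and 4.11 FPKM in NC, and its log2 fold change was -0.21 without NC replicate 3. Slc2a3 was at 2.71, 3.72 and 2.52 FPKM in HBOT, 2.74, 1.90 and 1.64 in CTX and 2.11, 2.81 and 3.80 in NC (log2 fold changes 0.37 in HBOT against CTX, -0.33 in CTX against NC and 0.039 in HBOT against NC, SE 0.21 each). Pgam1 was at 149.8, 233 and 211 FPKM in CTX, against 249, 249.8 and 203 FPKM in NC. Without NC replicate 3 Slc2a3 was at -0.17, and without CTX replicate 1 Pgam1 was at -0.070. Kdm3a was at 21.1, 19.8 and 18.0 FPKM in CTX, against 20.8, 20.8 and 23.5 FPKM in NC, and Pkm at 259.8, 211 and 272 FPKM in HBOT, 194, 253 and 283 in CTX and 246, 279 and 309 in NC (log2 fold changes 0.034 in HBOT against CTX, -0.20 in CTX against NC and -0.17 in HBOT against NC, SE 0.17 each).

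Most of the sensing machinery stood close in all groups. Hif1a averaged 33.3 ± 2.14 FPKM in CTX and 39.6 ± 4.31 in NC (SD, n = 3 each), a log2 fold change of -0.24 with an SE of 0.29. That SE comes from all 3 groups and contains the spread of HBOT replicate 2. Without that library the SE was 0.10 (limma unadjusted p = 0.0509, adjusted p = 0.319). Epas1, which encodes the other HIF alpha subunit and is typical of endothelium, was at 28.8, 36.6 and 20.8 FPKM in HBOT, 28.5, 21.3 and 31.7 in CTX and 25.4, 25.2 and 22.3 in NC (log2 fold changes 0.060 in HBOT against CTX, 0.14 in CTX against NC and 0.20 in HBOT against NC, SE 0.21 each). Summed endothelial markers were at 70.4 to 103 FPKM in HBOT, 81.1 to 96.02 in CTX and 87.4 to 98.9 in NC. Neither the gene nor these markers separated the groups. Arnt was at 25.1, 26.5 and 24.05 FPKM in HBOT, 24.6, 22.0 and 21.7 in CTX and 21.5, 23.3 and 24.9 in NC (log2 fold changes 0.14 in HBOT against CTX, -0.027 in CTX against NC and 0.11 in HBOT against NC, SE 0.10 each). Egln1 was at 15.5, 14.4 and 13.1 FPKM in HBOT, 16.1, 13.8 and 14.2 in CTX and 13.7, 15.01 and 15.1 in NC (log2 fold changes -0.036 in HBOT against CTX, 0.0089 in CTX against NC and -0.027 in HBOT against NC, SE 0.11 each). These levels lay within a narrow band. Hif1an was at 11.39, 10.6 and 10.1 FPKM in HBOT, 11.5, 10.6 and 9.40 in CTX and 9.25, 10.4 and 10.02 in NC (log2 fold changes 0.028 in HBOT against CTX, 0.076 in CTX against NC and 0.10 in HBOT against NC, SE 0.11 each). Vhl, the recognition subunit of the ligase that destroys HIF, was at 15.2, 9.24 and 15.4 FPKM in HBOT, 14.7, 13.1 and 14.3 in CTX and 12.3, 12.7 and 14.5 in NC (log2 fold changes -0.11 in HBOT against CTX, 0.088 in CTX against NC and -0.017 in HBOT against NC, SE 0.18 each). With all 9 libraries the groups of these genes overlapped in every comparison. Without HBOT replicate 2, Vhl lay higher in HBOT without overlap against CTX (0.12, SE 0.099) and against NC (0.21, SE 0.099), in a setting where 9.17% and 23.6% of all tested genes did so. With all libraries, among Epas1, Arnt, Egln1, Hif1an and Vhl only Arnt, in HBOT against CTX and in HBOT against NC, had a fold change larger than its standard error.

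The enzymes that follow had overlapping groups in every comparison with all 9 libraries. Hk1, the housekeeping hexokinase, was at 17.2, 11.1 and 16.2 FPKM in HBOT, 13.4, 16.2 and 12.5 in CTX and 15.5, 15.4 and 16.9 in NC (log2 fold changes 0.057 in HBOT against CTX, -0.18 in CTX against NC and -0.12 in HBOT against NC, SE 0.17 each). Hk2 was at 6.53, 15.6 and 6.87 FPKM in HBOT, 7.73, 10.4 and 6.77 in CTX and 7.01, 9.39 and 7.93 in NC (log2 fold changes 0.11 in HBOT against CTX, 0.020 in CTX against NC and 0.13 in HBOT against NC, SE 0.30 each). Ldha was at 172, 303 and 157 FPKM in HBOT, 164, 166 and 176 in CTX and 159, 181 and 236 in NC (log2 fold changes 0.26 in HBOT against CTX, -0.17 in CTX against NC and 0.089 in HBOT against NC, SE 0.24 each). For Hk2 and Ldha the highest library was HBOT replicate 2. Without that library Hk2 lay lower in HBOT than in all of NC (-0.24, SE 0.18), as was true of 13.2% of all tested genes. Eno1 was at 154, 94.9 and 121 FPKM in HBOT, 114, 114 and 138 in CTX and 108, 108 and 150.1 in NC (log2 fold changes -0.0014 in HBOT against CTX, 0.0078 in CTX against NC and 0.0064 in HBOT against NC, SE 0.20 each). Gapdh, read with the doubt given above, was at 13.9, 24.7 and 11.5 FPKM in HBOT, 13.9, 11.2 and 15.2 in CTX and 18.2, 12.4 and 17.6 in NC (log2 fold changes 0.23 in HBOT against CTX, -0.23 in CTX against NC and 0.0015 in HBOT against NC, SE 0.27 each). Neither enzyme separated the groups.

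HBOT against NC sets drug plus oxygen beside untreated ovaries. With limma 0 of the 40 genes passed (smallest adjusted p = 0.291) and 0% of all tested genes were called. At an unadjusted p under 0.05 there were 3 of the 40, where 11.9% of all tested genes had such a p: all 3 were lower in HBOT (5.65% of all tested genes) and 0 higher (6.22%). The groups did not overlap for 6 of the 40 genes, where 20.5% of all tested genes did so: all 6 were lower in HBOT (9.6%) and 0 higher (10.9%). Without HBOT replicate 2 the numbers were 10 lower (13.2% of all tested genes) and 1 higher (23.6%). The median log2 fold change was -0.0095 over the set. This comparison shares the HBOT libraries with HBOT against CTX and the NC libraries with CTX against NC.

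Pgam1 (ENSMUSG00000011752) had the smallest p of the set. It was at 157, 135 and 157 FPKM in HBOT, against 249, 249.8 and 203 FPKM in NC. The groups were well apart (log2 fold change -0.64, SE 0.17, limma adjusted p = 0.291; -0.57 without HBOT replicate 2). Aldoc was at 2.66, 1.01 and 2.86 FPKM in HBOT, against 5.64, 5.21 and 4.79 FPKM in NC (-1.02, SE 0.33, adjusted p = 0.336). Bnip3 was at 37.4, 9.999 and 38.9 FPKM in HBOT, against 65.0, 55.9 and 66.0 FPKM in NC (-1.30, SE 0.45, adjusted p = 0.354). Bnip3 was lowest in HBOT replicate 2, and the other HBOT libraries also lay below all of NC (-0.69 without replicate 2, SE 0.19, adjusted p = 0.265).

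The other 3 genes without overlap were regulators and enzymes of the upper pathway. Pfkp was at 13.6, 15.2 and 9.68 FPKM in HBOT, against 27.1, 36.9 and 18.3 FPKM in NC (-1.01, SE 0.45, adjusted p = 0.421). Pfkfb3 was at 6.11, 6.98 and 5.32 FPKM in HBOT, against 9.90, 15.1 and 9.14 FPKM in NC (-0.77, SE 0.34, adjusted p = 0.422). Aldoa was at 454, 421 and 481 FPKM in HBOT, against 608, 571 and 545 FPKM in NC (-0.35, SE 0.16, adjusted p = 0.441). Lying below NC is how these 6 genes were picked. The HBOT mean was also below the CTX mean for each of them. CTX replicate 1 lay near or below the HBOT level, and the other CTX libraries lay within or above the NC range. All 9 genes of upper glycolysis had negative log2 fold changes, with a median of -0.35 against -0.015 over all tested genes. Those of Pfkl (-0.088, SE 0.21) and Pfkfb4 (-0.16, SE 0.21) were within their standard error. The number negative was 7 of 9 without HBOT replicate 2, 8 of 9 without NC replicate 3 and 8 of 9 with library weights.

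**Figure D5:**
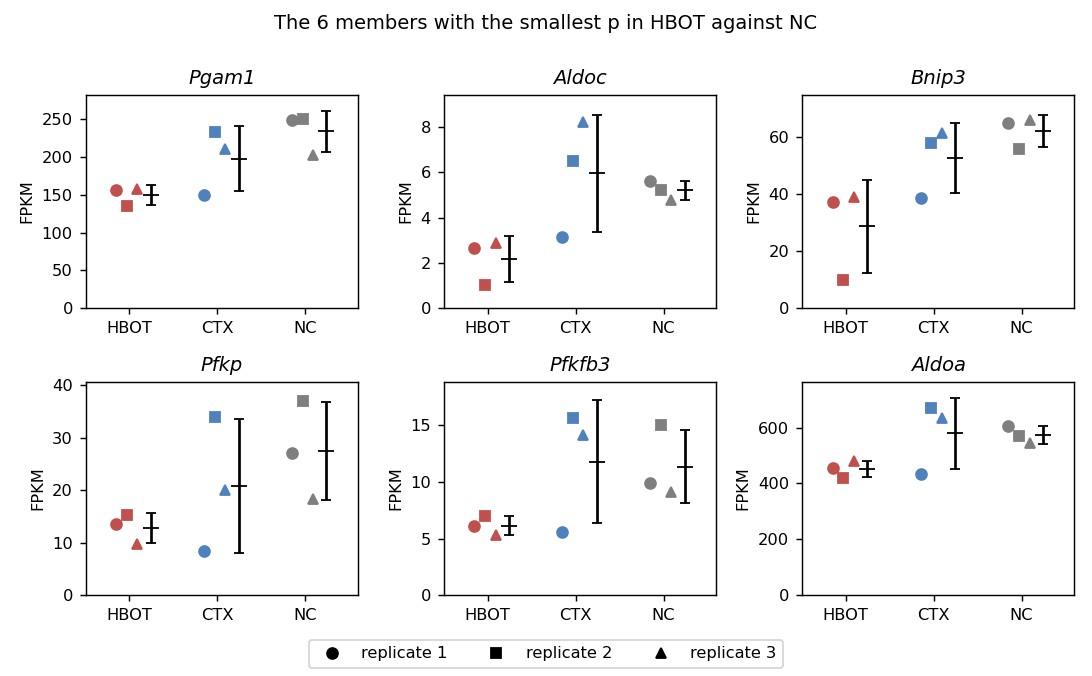
FPKM of the 6 genes of the set with the smallest p in HBOT against NC, by group (HBOT, CTX, NC), with circles, squares and triangles for replicates 1, 2 and 3 and black bars for mean and SD over 3 libraries. All 3 HBOT libraries lie below all 3 NC libraries in each panel, and the circle of CTX lies near the HBOT level.

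Corpus luteum markers were read beside these genes. The summed FPKM of 6 luteal genes, all of them detected, was 2638, 1508 and 5511 in HBOT, 2609, 3678 and 4691 in CTX and 6953, 6501 and 4983 in NC. The sum of HBOT replicate 3 lay within the NC range through Akr1c18, which was at 2848 FPKM in it, against 2127 to 2509 FPKM in NC. Its Prlr (38.5 FPKM), Parm1 (5.59) and Hsd3b1 (2448) were below every NC library. Its Ptgfr (109 FPKM) and Lhcgr (61.3) lay within the NC range. The sums of the other HBOT libraries were below all of NC. So were the sums of the 3 CTX libraries, in which Akr1c18 was at 289, 125 and 153 FPKM. For the 6 genes, however, CTX replicates 2 and 3 lay within or above the NC range. The part of these markers in the values of the 6 genes was not tested.

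Several well known members had overlapping groups in all comparisons with all 9 libraries. Vegfa was at 54.6, 87.8 and 63.0 FPKM in HBOT, 63.6, 86.4 and 102 in CTX and 105, 101 and 57.8 in NC. Its log2 fold change was -0.29 in HBOT against CTX and -0.33 in HBOT against NC (SE 0.28 each, limma adjusted p = 0.737 and 0.614). Single libraries decided these sizes: with 1 library left out they ran from -0.49 (without HBOT replicate 2, when the HBOT libraries lay below all of CTX) to -0.14 (without CTX replicate 3) against CTX, and from -0.61 (without NC replicate 3) to -0.18 (without NC replicate 1) against NC. Without HBOT replicate 2, 9.57% of all tested genes were lower in HBOT than in all of CTX in this way. Ddit4, a stress-induced inhibitor of the growth kinase mTOR, was at 36.6, 16.7 and 27.3 FPKM in HBOT, 29.6, 22.3 and 22.3 in CTX and 18.0, 29.4 and 22.9 in NC (log2 fold changes 0.058 in HBOT against CTX, 0.089 in CTX against NC and 0.15 in HBOT against NC, SE 0.28 each). Its highest library was HBOT replicate 1. Ndrg1, a stress-responsive HIF target, was at 13.1, 19.1 and 10.4 FPKM in HBOT, 11.2, 14.95 and 8.21 in CTX and 10.5, 12.7 and 9.68 in NC (log2 fold changes 0.28 in HBOT against CTX, 0.029 in CTX against NC and 0.31 in HBOT against NC, SE 0.25 each). Pdk1, the kinase that shuts pyruvate out of mitochondria, was at 5.36, 3.12 and 3.54 FPKM in HBOT, 8.89, 4.31 and 4.08 in CTX and 5.55, 4.16 and 8.86 in NC (log2 fold changes -0.39 in HBOT against CTX, -0.11 in CTX against NC and -0.49 in HBOT against NC, SE 0.32 each). The high values of Pdk1 came from CTX replicate 1 and NC replicate 3. Without the first it was at -0.079 in HBOT against CTX, and without the second at -0.24 in HBOT against NC. Over the 9 libraries P4ha1, a collagen prolyl hydroxylase, ranged from 29.4 to 39.5 FPKM, Tpi1 from 126 to 206, Gpi1 from 87.3 to 134 and Pfkl, the liver-type phosphofructokinase, from 18.5 to 34.8. Their groups and those of Kdm3a overlapped in all 3 comparisons.

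A wider list of the same pathways was read alongside, with 109 further genes of glycolysis, pyruvate and lactate metabolism, HIF regulation and HIF response. Of these 106 were in the table and 93 were tested, and 0 of the 93 passed limma's test in any comparison. At an unadjusted p under 0.05 there were 5 higher and 2 lower in HBOT against CTX, where 6.09% of all tested genes had such a p, 4 higher and 5 lower in CTX against NC (7.98%), and 5 higher and 6 lower in HBOT against NC (11.9%). Their median log2 fold changes were -0.044 in HBOT against CTX, 0.0088 in CTX against NC and 0.0012 in HBOT against NC.

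Among lactate genes Ldhb, the subunit of lactate dehydrogenase that favours pyruvate formation, was at 236, 270.0 and 257 FPKM in HBOT, 242, 202 and 173 in CTX and 154, 139 and 167 in NC. The HBOT and CTX libraries all lay above the NC libraries (log2 fold change 0.73, SE 0.14, limma adjusted p = 0.235 in HBOT against NC; 0.42, SE 0.14, adjusted p = 0.474 in CTX against NC). Ldha made up 42.2%, 52.9% and 38.0% of the summed FPKM of Ldha and Ldhb in HBOT, 40.4%, 45.02% and 50.4% in CTX and 50.8%, 56.7% and 58.6% in NC. Ldhd, a mitochondrial dehydrogenase of D-lactate, was lowest in HBOT, at 4.34, 2.53 and 4.24 FPKM in HBOT, 4.73, 7.79 and 10.1 in CTX and 8.18, 9.58 and 11.2 in NC (HBOT against NC, -1.19, SE 0.26, adjusted p = 0.245; HBOT against CTX, -0.84, SE 0.26, adjusted p = 0.71). Pdk4, a starvation-induced relative of Pdk1, was at 7.34, 12.6 and 6.80 FPKM in HBOT, against 5.47, 3.59 and 3.14 FPKM in CTX (0.95, SE 0.25, adjusted p = 0.71). Rack1, a ribosomal protein that also promotes HIF turnover, was at 683 to 767 FPKM in HBOT, against 564 to 603 FPKM in NC (0.30, SE 0.09, adjusted p = 0.332), and Pgm1, which links glycogen to glycolysis, at 12.7 to 20.8 FPKM in HBOT, against 24.98 to 26.2 FPKM in NC (-0.54, SE 0.17, adjusted p = 0.333, and -0.34 without HBOT replicate 2).

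Some HIF-responsive genes outside the set, named for their small p, had their lowest values in CTX. The 43 tested genes of their list went both ways. In HBOT against CTX 22 log2 fold changes were positive and 21 negative, and in CTX against NC 18 were positive and 25 negative. Angptl4, a secreted inhibitor of lipoprotein lipase, was at 44.1, 63.7 and 63.1 FPKM in HBOT, 21.3, 29.8 and 32.8 in CTX and 37.3, 52.2 and 67.7 in NC. Its log2 fold change was 1.005 in HBOT against CTX (SE 0.25, limma adjusted p = 0.71) and -0.87 in CTX against NC (SE 0.25, adjusted p = 0.418). Bhlhe40, a transcriptional repressor, was at 17.4, 51.3 and 46.4 FPKM in HBOT, 14.8, 19.8 and 14.9 in CTX and 40.4, 55.5 and 38.7 in NC (CTX against NC, -1.38, SE 0.36, adjusted p = 0.36). Loxl2, a collagen crosslinking enzyme, was at 36.4, 36.0 and 26.9 FPKM in HBOT, 16.6, 22.8 and 17.9 in CTX and 30.6, 30.4 and 35.8 in NC (0.76, SE 0.16, adjusted p = 0.71 in HBOT against CTX; -0.74, SE 0.16, adjusted p = 0.301 in CTX against NC). Each pair of fold changes shares the CTX libraries, so a low CTX group alone gives both signs. HBOT replicate 1 had Bhlhe40 at the CTX level.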

How the data were processed

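Poly(A) RNA of mouse ovary, 9 libraries in 3 groups of 3, was prepared with an mRNA kit, per the labels' protocols. The submitters' processing notes name fastp 0.23.4 and the build GRCm39 (mm39), and the sources used here name no aligner, counter or annotation. FPKM values were deposited by the authors, 1 column per library. Columns were matched through the sample descriptions.

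Values were taken as log2(FPKM + 1), unscaled, for entries at 1 FPKM or more in at least 3 libraries. limma 3.58.1 (R 4.3.3, eBayes with trend, 6 residual degrees of freedom) fitted the 3 groups together, with Benjamini-Hochberg adjustment over 13338 entries. FPKM keeps no counts, so count methods were not used, and the precision comes from how libraries of a group vary. The + 1 understates fold changes of low genes. Members and lists were chosen with earlier results of these data known. Library values and fold changes are given for the 6 members with the smallest p per comparison and for a panel of 25 genes. Of the wider list the 4 genes with the smallest p per comparison are named; other genes were named after their values were seen. Across alternatives the direction of a single gene was read only from a fold change larger than its standard error, a rule chosen after the values were seen. Counts of signs in a role or list took every fold change. The fit was tested on simulated data with independent normal noise and, for each gene, the same spread in all libraries. These data held no outlying library, so the test does not cover that case. Promoter sequences are from RefSeq (GRCm38.p6), another build than the files', and were matched by symbol. Figures used matplotlib 3.10.9.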

Additional observations from a re-analysis of the deposited data

How the results depend on the processing

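No gene of the set passed in any of the 20 alternatives in any comparison: other pseudocounts (0.1) and filters (none, or 5 FPKM), 3 other scalings (quantile, median-of-ratios, TPM), 2 groups only, the replicate number as a block, robust eBayes, library weights, each library left out, and HBOT replicate 2 and CTX replicate 1 both left out. The number at an unadjusted p under 0.05 ran from 2 to 9 in HBOT against CTX, 0 to 4 in CTX against NC and 3 to 9 in HBOT against NC, and was 4, 1 and 5 with the replicate block, which called 0 genes of the set and 0 of all genes. Same-numbered libraries did not deviate together (correlations of -0.29 to 0.16 across genes), so the numbers were not taken as pairs. Over all tested genes the count called in HBOT against CTX was 1 without the filter, 5 with library weights, 2 without both libraries and 0 to 1 with a library left out. In CTX against NC it was 31 with 2 groups only, 123 with weights, 16 without both libraries and 0 to 9 with a library left out (8 without HBOT replicate 2, 9 without HBOT replicate 3), and in HBOT against NC 1 without the filter, 181 with weights and 0 to 3 with a library left out. The cause was not tested. Unadjusted calls were higher for 322 of 812 in HBOT against CTX and for 430 of 842 with median-of-ratios scaling, and for 699 of 1065 in CTX against NC and 525 of 1059 with that scaling. In HBOT against NC they were higher for 830 of 1584, and for 680 of 1608 as TPM.

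Of 97 named fold changes, 50 exceeded their standard error, and 5 of these turned. In HBOT against CTX, Slc2a1 (0.58) was at -0.17 with library weights, -0.22 without HBOT replicate 2 and -0.25 without both libraries, with an upper end of 0.98 with a library left out. Hif1a (0.32) was at -0.038, -0.075 and -0.13 in the same settings, with an upper end of 0.56, Ldha (0.26) at -0.036 without HBOT replicate 2 and -0.054 without both, with an upper end of 0.44, and Pdk1 (-0.39) at 0.049 without both. In HBOT against NC, Slc2a1 (0.68) was at -0.049 with weights and -0.12 without HBOT replicate 2, alone or with CTX replicate 1, with an upper end of 1.09. In each of these settings HBOT replicate 2 was left out or every library was given a weight of its own. Pdk1 turned only with CTX replicate 1 left out as well. It was at -0.26 without HBOT replicate 2 alone and at -0.079 without CTX replicate 1 alone. With 1 library left out, 30 of the 50 turned or moved by over 1.5 times in some case. Of the 47 fold changes within their standard error, 34 had the other sign in some alternative. Ldhb (0.69, adjusted p = 0.0343) and Ldhd (-0.95, adjusted p = 0.0468) passed in HBOT against NC with library weights, and Bhlhe40 (-1.38, adjusted p = 0.0476) in CTX against NC with 2 groups only. With 1 library left out the median of the set ran to -0.07 in HBOT against CTX (without HBOT replicate 1), -0.11 in CTX against NC (without CTX replicate 2) and -0.10 in HBOT against NC (without HBOT replicate 1).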
